A study of Mus musculus with 8 samples.

Results

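The genes described here are the FoxO transcription factors Foxo1, Foxo3 and Foxo4 and 7 of their known target genes, Ccng2, Cited2, Sesn1, Sesn3, Pik3ip1, Bcl6 and Klf2. They were chosen by symbol, 1 row of the expression table for each, and make up 10 of the 19505 genes that the table names. Their RNA was measured by microarray in 3 samples labelled Pik3ca-/- (KO) and 5 samples labelled WT. All 8 samples were GFP-positive granulocyte-macrophage progenitors (GMPs), the leukaemia stem cells of this model, sorted from the bone marrow of transplanted mice whose cells carried the fusion oncogene MLL-AF9. KO and WT therefore share MLL-AF9 and the transplant setting, and differ in Pik3ca, the gene of p110-alpha, a catalytic subunit of phosphoinositide 3-kinase (PI3K) of class I. The labels give neither the deleted part of Pik3ca nor the age, sex or strain of the mice, and do not tie the arrays to mice. The p-values below therefore cover the spread among these samples, which may be technical.

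FoxO factors are forkhead transcription factors that sit at the end of the PI3K pathway. When PI3K is active, the kinase AKT phosphorylates them and 14-3-3 proteins hold them in the cytoplasm. When PI3K is inactive, they enter the nucleus and switch on genes that slow the cell cycle, restrain growth signalling and protect against oxidative stress, and in blood stem cells they are known for keeping the cells quiescent. This control acts on the protein and its location, which an array of RNA does not read, so the RNA of the target genes is the nearest readout here. The comparison of KO with WT asks whether these RNAs differed in leukaemia cells without p110-alpha.

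None of the 10 genes passed the test between KO and WT. A lower mean in KO was found for 9 of the 10, against 48.1% of all named genes. Without KO array 3 it was found for 5 of the 10, and the share of all named genes was not computed for that setting. Ccng2, a cyclin that restrains the cell cycle, had a KO level 0.663 times that of WT. It was the only 1 of the 6 tested members at an unadjusted p under 0.05 in limma, against 2.84% of all tested genes. Its adjusted p in limma was 0.998. Sesn1, a restraint on mTORC1, was the 1 gene with a higher mean in KO, and WT array 3 carried much of that difference. Bcl6, a transcriptional repressor, and Pik3ip1, an inhibitor of PI3K, had their lowest values on KO array 3, and the mean of Bcl6 was higher in KO without that array.

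All values are the deposited log2 values, so a difference of 1 is a 2-fold change. No label states the log base, which was read from their range, 1.89 to 18.6. The medians of the arrays lay between 5.26 and 5.51, and the 23 rows whose identifiers mark them as background probes reached 5.78 to 5.97 at their highest on each array. WT array 3 stood apart, with a mean correlation with the other arrays of 0.921 across genes, against 0.968 to 0.972 for the other 7, so differences of the members are also given without it. Pik3ca itself was 9.15 ± 0.36 in KO (SD, n = 3) and 9.31 ± 0.51 in WT (SD, n = 5), and the exact permutation test, two-sided, gave p = 0.661. Without WT array 3, which held the lowest Pik3ca value, the difference was -0.39 and every KO array lay below every WT array. The exact permutation p was 0.0286, unadjusted and the smallest that 35 splits can give. Without that array, 5.55% of tested genes had groups without overlap, in either direction. Probes outside the deleted part would not report its loss, and the labels do not name that part, so this gene is no firm check of the labels. In sorted cells measured in bulk, fewer cells of a type and less RNA per cell cannot be told apart.

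**Figure D1:**
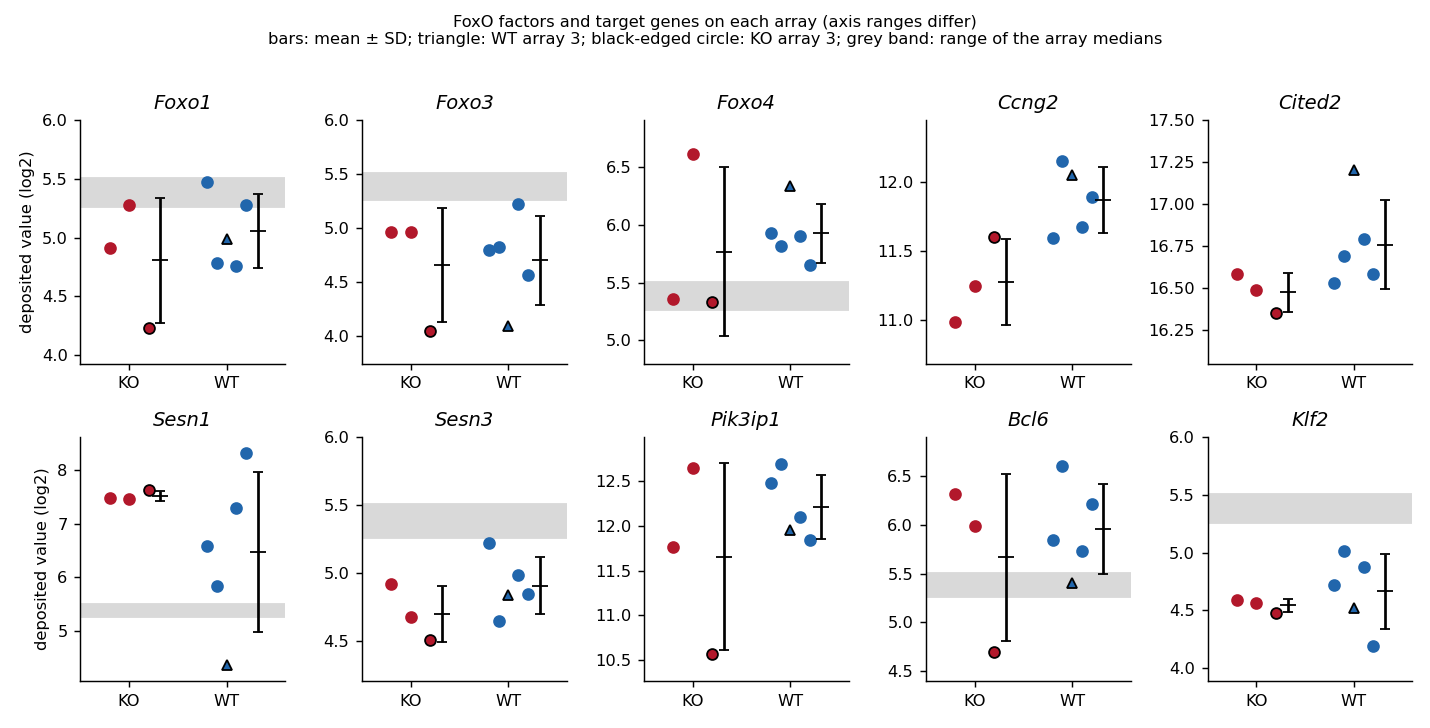
Deposited log2 value of each of the 10 genes on every array, KO left and WT right, with the mean and SD of each group and the range of the array medians as a grey band. No gene separates KO from WT on all arrays. The Ccng2 values of KO, 10.98 to 11.60, come closest to lying below those of WT, 11.59 to 12.15.

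The 3 factors themselves were dim on these arrays. Foxo1 was 4.91, 5.28 and 4.23 on KO arrays 1 to 3, against 5.47, 4.78, 4.99, 4.76 and 5.28 on WT arrays 1 to 5. It exceeded the array's median row on 2 of 8 arrays and all background rows on 0. A row at this level is not clear of the background rows, and it does not show that the gene was silent. The mean was 4.81 ± 0.53 in KO (SD, n = 3) and 5.05 ± 0.31 in WT (SD, n = 5), and the groups overlapped. The difference was -0.25, and -0.27 without WT array 3.

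Foxo3, the family member best known for guarding quiescent blood stem cells in mice, was 4.96, 4.96 and 4.04 in KO, against 4.79, 4.82, 4.09, 5.22 and 4.56 in WT. It was below the median row on all 8 arrays. KO array 3 and WT array 3 shared the lowest values, and the 2 groups covered nearly the same range. The difference was -0.04, with a 95% interval in limma of -0.73 to 0.64, and -0.19 without WT array 3.

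Foxo4, which shares the forkhead domain and the AKT control of the other two, lay above the median row on 6 of 8 arrays. Its level was 5.36, 6.61 and 5.33 in KO, against 5.93, 5.82, 6.34, 5.90 and 5.65 in WT, above the median row on 1 of 3 KO arrays and on 5 of 5 WT arrays. KO array 2 held the highest value of all and the other 2 KO arrays the lowest values. Foxo4 exceeded all background rows on 3 of 8 arrays. The difference was -0.16, with -0.06 without WT array 3 and 0.05 without KO array 3, so the arrays did not settle its direction. The exact permutation p, two-sided over 56 splits of the arrays, was 0.429 for Foxo1, 0.929 for Foxo3 and 0.607 for Foxo4.

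Among the targets that act on the cell cycle, Ccng2 encodes cyclin G2, an unusual cyclin that slows proliferation and is a classic gene induced by FoxO factors. It was 10.98, 11.24 and 11.60 in KO, against 11.59, 12.15, 12.05, 11.67 and 11.89 in WT. The first 2 KO arrays lay below every WT array, and KO array 3 lay within 0.01 of WT array 1, the lowest of WT. The mean was 11.27 ± 0.31 in KO (SD, n = 3) and 11.87 ± 0.24 in WT (SD, n = 5), a difference of -0.59 with a standard error of 0.23.

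As a fold, the Ccng2 level in KO was 0.663 times that of WT, with a 95% interval of 0.463 to 0.948 before any adjustment for the number of genes. In limma the unadjusted p was 0.0289 and the adjusted p 0.998, and the exact permutation p was 0.0536, where 56 splits can give 0.0179 at the lowest. Without WT array 3 the difference was -0.55, with an exact permutation p of 0.0571. Of the 6 members bright enough to test, Ccng2 was the only 1 at an unadjusted p under 0.05 in limma, against 2.84% of all 9920 genes tested, and it was so again without WT array 3, against 4.68%. Its difference was larger in size than that of 89.1% of tested genes. Leaving out any 1 array kept it between -0.75 and -0.45.

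The promoter of Ccng2 is shown because, of the members, it holds the insulin response sequence CAAAACAA, a motif known for binding FoxO factors. It is the stretch of 250 bases before the transcript start, GRCm38.p6 chr5:93267323-93267572, plus strand, from RefSeq, with the motif in capitals, its first base 16 bases before the start.
Ccng2: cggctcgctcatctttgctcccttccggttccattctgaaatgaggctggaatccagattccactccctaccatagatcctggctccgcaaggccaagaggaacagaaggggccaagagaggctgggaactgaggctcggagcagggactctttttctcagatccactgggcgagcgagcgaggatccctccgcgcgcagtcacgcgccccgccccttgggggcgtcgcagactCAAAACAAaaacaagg
Windows of 300 bases, with 250 before and 50 after a start, were searched on both strands for this motif and for the FoxO core motif GTAAACA. The 2 motifs do not overlap. Of all 32851 windows, 2.51% hold the first and 3.65% the second. Of the 11 windows found for 9 of the 10 members, 1 held each motif, that of Ccng2 and 1 of the 2 of Sesn1. Foxo4 had no window. A match is a run of letters and does not show binding.

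Cited2 encodes a partner of the acetyltransferases CBP and p300 that mouse blood stem cells need. It was bright on every array, at 16.58, 16.49 and 16.35 in KO, against 16.53, 16.69, 17.20, 16.79 and 16.58 in WT. Of the 5 WT arrays, 4 lay above every KO array, and WT array 3 was the highest. The mean was 16.47 ± 0.12 in KO (SD, n = 3) and 16.76 ± 0.27 in WT (SD, n = 5). The difference of -0.29 had an exact permutation p of 0.107 and was -0.18, with a p of 0.114 in the same permutation test, without WT array 3.

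Bcl6 encodes a zinc finger repressor that holds down D-type cyclins and is also prominent in germinal centre B cells. It was 6.32, 5.99 and 4.70 in KO, against 5.84, 6.60, 5.40, 5.73 and 6.21 in WT. KO arrays 1 and 2 lay inside the WT range and KO array 3 below it. Bcl6 exceeded all background rows on 4 of 8 arrays. The difference was -0.28 with all arrays, -0.42 without WT array 3 and 0.20 without KO array 3, with an exact permutation p of 0.571 over all arrays. Klf2, a zinc finger factor of quiescent lymphocytes, was dim, at 4.59, 4.56 and 4.48 in KO against 4.72, 5.01, 4.52, 4.88 and 4.19 in WT. It lay below the median row on all 8 arrays, and WT array 5 held its lowest value. Its difference was -0.12, and -0.16 without WT array 3.

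The sestrins are stress-induced proteins that restrain mTORC1, the growth kinase complex downstream of AKT. Sesn1, which p53 also induces, was 7.47, 7.45 and 7.62 in KO, against 6.59, 5.83, 4.37, 7.29 and 8.31 in WT. The KO arrays lay within 0.17 of each other, while the WT arrays spanned 3.94. KO was above 4 of the 5 WT arrays and below WT array 5. The mean was 7.51 ± 0.09 in KO (SD, n = 3) and 6.48 ± 1.49 in WT (SD, n = 5), a difference of 1.03 that exceeded in size 98.0% of tested genes.

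The spread of Sesn1 in WT left the difference uncertain. Its 95% interval in limma was -0.65 to 2.72, or a KO level of 0.636 to 6.60 times that of WT, with an adjusted p of 0.998 and an exact permutation p of 0.304. WT array 3 held the lowest value, which differed from the mean of the other 4 by -2.64. Without it the Sesn1 difference was 0.51, with an exact permutation p of 0.457. The other sestrin, Sesn3, was below the median row on all 8 arrays, at 4.92, 4.68 and 4.51 in KO against 5.22, 4.65, 4.84, 4.99 and 4.85 in WT. Its difference was -0.20, and -0.22 without WT array 3, with an exact permutation p of 0.250 over all arrays.

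The match to the FoxO core motif in Sesn1 lies behind 1 of its 2 transcript starts, and the 30 bases around it are shown as the second of the 2 matches among the members. They are GRCm38.p6 chr10:41810584-41810613, plus strand, from RefSeq, with the match in capitals, which reads GTAAACA on the minus strand.
Sesn1: agaaccttctacTGTTTACcagccttttgg

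Pik3ip1 encodes a membrane protein that binds the p110 subunits and holds PI3K down, so it is both a FoxO target and a brake at the top of the pathway. It was 11.76, 12.64 and 10.57 in KO, against 12.48, 12.69, 11.95, 12.10 and 11.84 in WT. KO array 2 was near the top of the WT range, KO array 1 just below its lower end and KO array 3 well below it. The mean was 11.65 ± 1.04 in KO (SD, n = 3) and 12.21 ± 0.36 in WT (SD, n = 5).

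The Pik3ip1 difference of -0.56 had a 95% interval in limma of -1.54 to 0.42, so a KO level between 0.345 and 1.33 times that of WT lies inside it. The exact permutation p was 0.321. Without WT array 3 the difference was -0.62. Without KO array 3 it was -0.02 and without KO array 2 it was -1.05, so that these 2 KO arrays moved it in opposite ways by about the same amount.

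**Figure D2:**
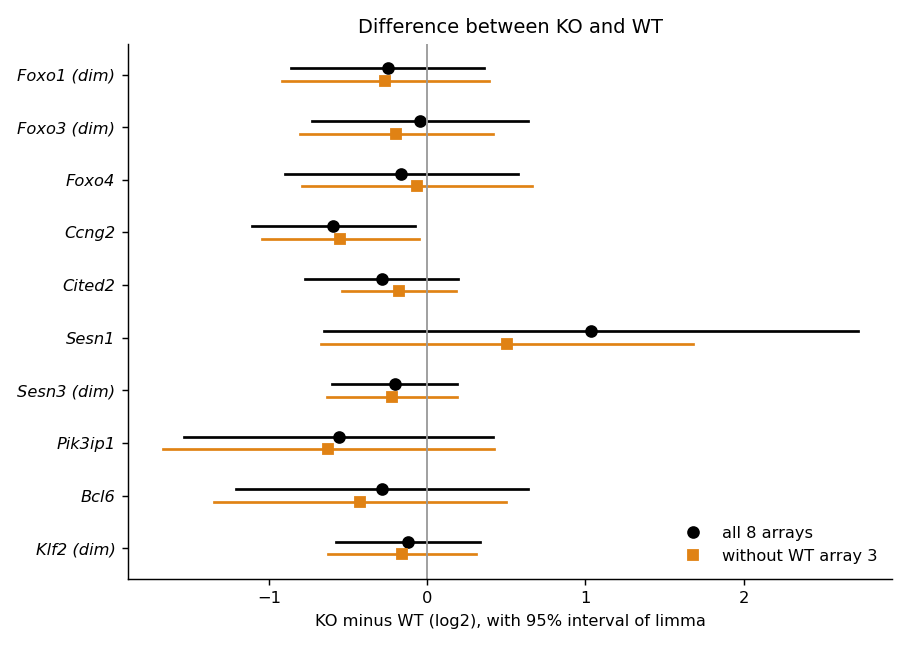
Difference KO minus WT on the log2 scale for each of the 10 genes, with its 95% interval in limma, with all 8 arrays (black circles) and without WT array 3 (orange squares). Members marked dim did not pass the filter on low values. The interval of Ccng2, -1.11 to -0.08 with all arrays, is the 1 that leaves out 0, before adjustment.

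Across all 10 members the median difference was -0.23, and -0.21 without WT array 3. Over all 19505 named genes the median was 0.01, and 0.02 without that array. Of the 10, 9 lay below 0, against 48.1% of the 19505 genes, and 9 did so without WT array 3, against 45.5%. The count depended on KO array 3. Without that array 5 members lay below 0 and 5 above, and the median was 0.01, with the share of all named genes not computed. Only Ccng2, Cited2, Sesn3, Pik3ip1 and Klf2 stayed below 0 then. The 10 members are not independent replicates of KO or WT.

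By the tests, 6 of the 10 members passed the filter on low values, namely Foxo4, Ccng2, Cited2, Sesn1, Pik3ip1 and Bcl6. In limma 0 of these 6 had an adjusted p under 0.05, against 0% of the 9920 genes tested, of which 282 had an unadjusted p under 0.05. Groups without overlap were found for 0 of the 6, against 3.09% of tested genes, and for 0 of the 6 without WT array 3, against 5.55%. The other 4 members, Foxo1, Foxo3, Sesn3 and Klf2, were read from a fit without the filter, where their adjusted p was 0.999 in limma. The standard error of the difference was 0.21 for Cited2, 0.41 for Bcl6 and 0.75 for Sesn1, against a median of 0.31 over all tested genes.

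**Figure D3:**
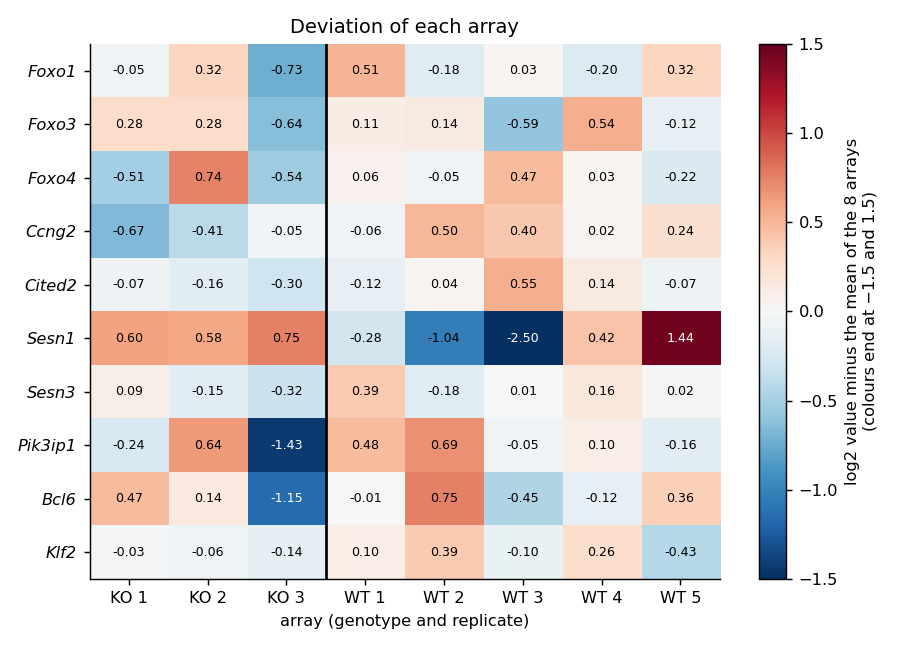
Log2 value of each gene on each array minus its mean over the 8 arrays, KO arrays left of the line and WT arrays right of it, with blue for lower and red for higher. KO array 3 is blue in 9 of 10 genes, with Pik3ip1 at -1.43 and Bcl6 at -1.15, and Sesn1 runs from -2.50 on WT array 3 to 1.44 on WT array 5. The share of all genes that are lower on KO array 3 was not computed.

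KO array 3 held the lowest value of all 8 arrays for 7 of the 10 members, Foxo1, Foxo3, Foxo4, Cited2, Sesn3, Pik3ip1 and Bcl6. The share of all genes with their lowest value on this array was not computed, so the count does not set the members apart. Against the mean of the other 2 KO arrays, KO array 3 differed by -1.63 for Pik3ip1 and -1.46 for Bcl6, and by 0.48 for Ccng2 and 0.16 for Sesn1. Foxo4 and Bcl6 on that array, and Foxo1, Foxo3 and Sesn3 on every array, did not exceed all background rows, so the order of their values carries little. The same array had the highest mean over 10 neutrophil markers, 14.6, against 13.1 and 13.7 on KO arrays 1 and 2 and 13.6 to 14.4 on the WT arrays. Summed on the linear scale, the 10 markers were 19.8 to 20.1 (log2) in KO and 19.9 to 20.1 in WT. All 10 lay above the median row on at least some arrays and 9 on all 8. WT array 3, with 14.4, came second. Within WT it held the lowest values of Foxo3 and Bcl6, the highest of Foxo4 and Cited2, and neither end for Foxo1, Sesn3 and Pik3ip1. The part of these markers in the members' values was not tested.

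**Figure D4:**
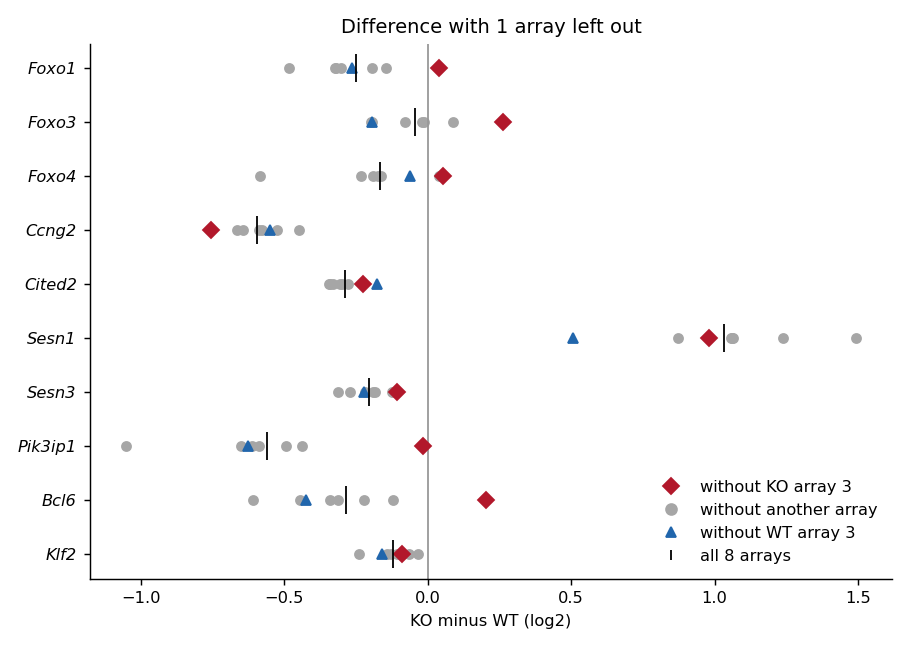
Difference KO minus WT (log2) of each gene with 1 array left out at a time, without KO array 3 as red diamonds, without WT array 3 as blue triangles and without any other array as grey circles, with the value over all 8 arrays as a black bar. Leaving out KO array 3 moves Foxo1, Foxo3, Foxo4 and Bcl6 above 0 and Pik3ip1 to -0.02. Ccng2 stays between -0.75 and -0.45.

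Of 10 GMP markers, 9 were in the table, and all 9 lay above the median row on every array. Their mean was 13.8 to 14.1 in KO and 14.0 to 14.4 in WT. Of 10 neutrophil markers 9 also lay above it on every array, as did 7 of 9 monocyte and macrophage markers. Lying above the median row therefore does not single out GMPs. Within the GMP list Cd34, a surface marker of progenitors, was 5.63, 7.81 and 7.42 in KO, against 9.49, 7.24, 10.94, 9.08 and 8.01 in WT. It exceeded all background rows on 7 of 8 arrays. Its groups overlapped, and its difference was -2.0, or -1.5 without WT array 3, with an unadjusted p of 0.0368 and an adjusted p of 0.998 in limma. Its exact permutation p was 0.0893. The mean over 10 mast cell, basophil and eosinophil markers was 6.15 to 6.26 in KO and 6.31 to 7.30 in WT, without overlap, while their sum on the linear scale was 10.8 to 11.3 (log2) in KO and 10.6 to 13.8 in WT. Among these, Epx, Fcer1a and Il5ra were below the median row on all arrays. Of the 7 of these 10 markers that were tested, 0 had groups without overlap, against 3.09% of all tested genes. Monocyte and macrophage markers, 9 in the table, had a mean of 8.34 to 8.81 in KO and 8.53 to 9.57 in WT. Of the 8 tested, 7 had a difference below 0, as had 4367 of all 9920 tested genes. So had 8 of 10 tested neutrophil, 5 of 5 megakaryocyte and platelet, and 6 of 7 mast cell, basophil and eosinophil markers. The counts were 4 of 9 for GMP, 2 of 2 for B cell, 0 of 2 for T and NK cell and 1 of 1 for erythroid markers. Of the monocyte and macrophage markers 0 passed and 2 had no overlap, with KO lower, where 1.51% of tested genes do. These were Ms4a6c, a membrane protein gene, with -1.14, and Irf8, a transcription factor of monocytes and dendritic cells, with -0.97. Without WT array 3 they were at -1.0 and -1.04. Megakaryocyte and platelet markers, 6 in the table, were at 5.89 to 6.25 in KO and 5.76 to 9.72 in WT, with WT array 1 the highest. Of 7 B cell and 7 T and NK cell markers in the table, the B cell genes Cd79a, Ms4a1 and Pax5 and the T and NK cell genes Cd3e, Cd3g, Cd247, Bcl11b and Ncr1 were below the median row on all arrays. The B cell genes Cd79b, at 7.5 to 8.47 in KO and 7.68 to 9.21 in WT, and Vpreb1, at 5.59 to 6.05 in KO and 5.56 to 7.93 in WT, were above it on all 8, and Cd3d and Klrb1c on 3 each. Klf2 and Bcl6 are also lymphocyte genes, and the part of these other cells in the members' values was not tested.

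A wider list of 41 further FoxO targets was read beside the members. The table names 38 of them and 26 were bright enough to test. Of these 14 were above 0 and 12 below, 0 passed, and the median was 0.11, against 0.04 over all tested genes. Without WT array 3, 12 were above 0 and 14 below, with a median of -0.03 against 0.00018 over all tested genes. Over all 38, dim ones included, 18 were above 0 and 20 below. The median of the 38 was -0.04, against 0.01 over all named genes. Irs2, an adaptor that couples insulin receptors to PI3K, had the smallest p among those tested. It was 13.40, 13.35 and 13.31 in KO, against 13.89, 13.69, 13.50, 13.56 and 13.96 in WT. Every KO array lay below every WT array, and the difference was -0.36, or -0.42 without WT array 3. Irs2 was the only 1 of the 26 tested targets without overlap, against 3.09% of all tested genes, 1.51% with KO lower. In limma its unadjusted p was 0.0917 and its adjusted p 0.998. Its exact permutation p was 0.0357, and 0.0571 without WT array 3.

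The other 5 targets taken by the smallest p overlapped between groups. Rictor, a subunit of mTORC2, differed by 1.28, with values of 9.25 to 9.73 in KO and 5.42 to 9.74 in WT, and by 0.58 without WT array 3. Bnip3, a receptor for the removal of mitochondria, differed by -0.49, and by -0.33 without that array. The antioxidant enzyme genes Prdx3 and Sod2 differed by 0.50 and 0.28, and by 0.17 and 0.32 without it. Gadd45b, a stress sensor, differed by 0.43, and by 0.15 without it. In Rictor, Prdx3 and Gadd45b, WT array 3 held the lowest value of all 8 arrays.

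Regulators and cofactors of FoxO factors were read in the same way. Of 34 listed, 30 were in the table and 29 were tested, 18 above 0 and 11 below. Again 0 passed, with a median of 0.12, and without WT array 3 a median of -0.05 with 13 above 0 and 16 below. Akt1, the kinase that phosphorylates FoxO factors, was 9.58, 10.76 and 10.85 in KO, against 9.88, 9.48, 6.62, 10.42 and 9.01 in WT. Its difference of 1.31 was 0.70 without WT array 3, and the groups overlapped either way. Skp2, a ubiquitin ligase subunit that marks FOXO1 for degradation, differed by 0.43, and by 0.45 without WT array 3, with 12.31 ± 0.36 in KO (SD, n = 3) and 11.88 ± 0.20 in WT (SD, n = 5).

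Among the remaining regulators taken by p, Mapk8, which encodes the stress kinase JNK1, was 7.12, 7.12 and 7.09 in KO, against 7.79, 7.28, 7.99, 7.24 and 7.18 in WT. The groups did not overlap, again with KO lower, and the difference was -0.38, or -0.26 without WT array 3. Mapk8 was the only 1 of the 29 tested regulators and cofactors without overlap, against 3.09% of all tested genes. The exact permutation p was 0.125. Prmt1, a methyltransferase that acts on FOXO1, differed by 0.44, and by 0.37 without that array. Ep300, an acetyltransferase, and Sirt3, a mitochondrial deacetylase, differed by 0.36 and -0.31, and by 0.18 and -0.15 without it.

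Sesn1 is a target of p53 as well as of FoxO factors, so 10 other p53 targets were listed, of which 9 were in the table and 4 tested. Of these 4, 1 had groups without overlap, against 3.09% of all tested genes. Tigar, which limits glycolysis, was 6.73, 6.66 and 6.70 in KO, against 5.80, 5.52, 3.94, 6.62 and 5.77 in WT. As in Sesn1, the KO arrays were close together and WT array 3 was the lowest, and here every KO array lay above every WT array, as in 1.58% of tested genes. The difference was 1.17, and 0.77 without WT array 3, with an unadjusted p of 0.0465, an adjusted p of 0.998 in limma and an exact permutation p of 0.0714. Ccng1, the cyclin related to Ccng2, differed by -0.24, Pmaip1, which promotes apoptosis, by 0.23 and Aen, a nuclease gene, by -0.15. Without WT array 3 these were at -0.22, 0.02 and -0.18.

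**Figure D5:**
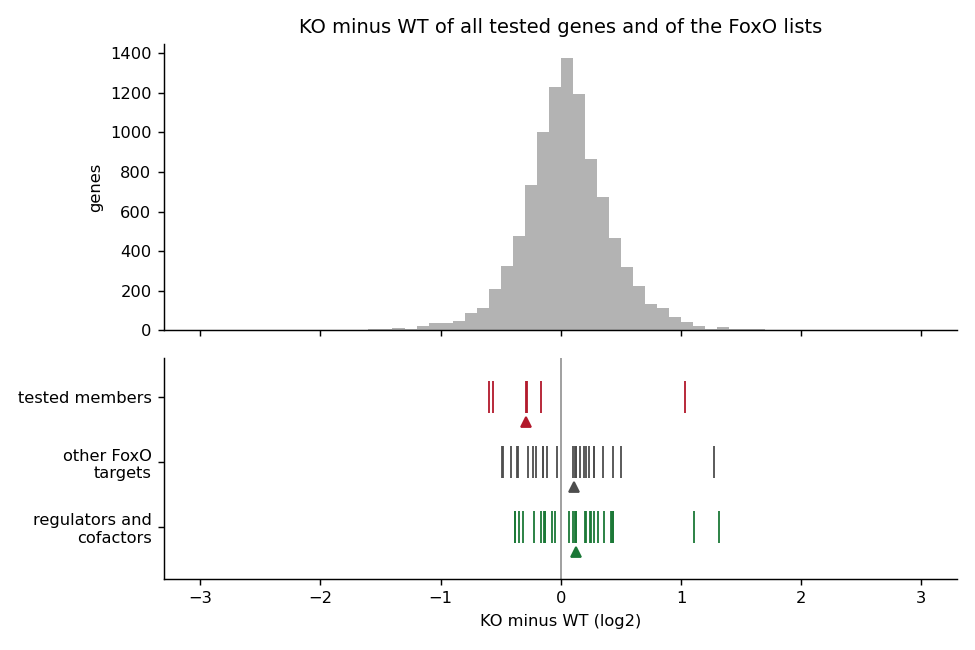
Top, histogram of the difference KO minus WT (log2) of all 9920 tested genes. Bottom, the same difference for the 6 tested members, the 26 other FoxO targets and the 29 regulators and cofactors, 1 tick per gene with the median as a triangle. The medians lie at -0.29, 0.11 and 0.12, and every list spreads to both sides of 0.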

How the data were processed

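The log2 values come from 1 table that the authors deposited, with 8 array columns and 28846 rows, 22206 of them transcript rows. Its software, normalization and build were not given in the sources used here. Rows were named by the platform annotation, 19572 of them with 1 symbol. The submitters' design text names a mouse transcriptome kit of Affymetrix, while the annotation appears to belong to another one, so the array type is open.

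A row was tested if it exceeded the median row on 3 or more arrays, with 1 row per symbol, that of the highest mean. KO was compared with WT in limma 3.58.1 under R 4.3.3 (two-sided, by lmFit with eBayes, on the values as deposited), with Benjamini-Hochberg adjustment over all 9920 genes. The 10 members and some named genes also had an exact permutation test of the difference of means, over 56 splits, or 35 without WT array 3, and these p-values are not adjusted. With 35 splits the smallest p is 0.0286.

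The members and gene lists were chosen with earlier results of these data known. From each wider list, the text names the 6 tested genes with the smallest unadjusted p, or all where fewer were tested. No pair of arrays was a duplicate (smallest root mean square difference 0.574). The number of arrays limits the precision. Promoter sequences came from RefSeq, GRCm38.p6, matched by symbol, and the coordinates are from that table, not from the array. Figures used matplotlib 3.10.9 in Python 3.11.15.

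The alternatives changed the filter on dim rows (none, or the 60th percentile on 5 arrays), the scaling (quantile, or centring on the median), the low end (a floor at the 25th percentile), the variance model (trend with robust eBayes), the weight of each array, the design (replicate numbers as a block), the row taken per symbol (largest variance) and the arrays, each left out in turn.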

Additional observations from a re-analysis of the deposited data

Results flagged for a closer look

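In the WT group, 34 values were searched for 1 array far from the other 4, by its gap to the nearest of them over the whole range of the group, and 5 were found, where chance gives about 1 in 20. In 3 of them the array was WT array 3, which was low. Prdx3 was 6.84 on it and 8.37 to 8.64 on the others, Gadd45b was 8.48 against 9.76 to 10.22 and Ep300 was 10.18 against 10.90 to 11.16. Sod2 was low on WT array 2, at 8.14 against 8.75 to 8.92. The mean of the megakaryocyte and platelet markers was high on WT array 1, at 9.72 against 5.75 to 6.77 on the others. No value of the 10 members was found in this way.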

How the results depend on the processing

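In limma 0 members and 0 genes passed under each of the 17 alternatives, with a smallest adjusted p of 0.936 for a member (with the replicate block) and 0.264 for any gene (without KO array 3). The median over the members lay between -0.37 and 0.011 with 1 array left out, and was above 0 only without KO array 3. With 1 array left out, Foxo1 ranged from -0.48 to 0.038, Foxo3 from -0.20 to 0.26, Foxo4 from -0.59 to 0.052 and Bcl6 from -0.61 to 0.20. Foxo3 was also at 0.0019 with median centring. Ccng2, Cited2, Sesn1, Sesn3, Pik3ip1 and Klf2 kept their sign under all 17. Under the stricter filter Foxo4 and Bcl6 were not tested. No label says that the replicate numbers pair the arrays. Deviations of same-numbered arrays correlated at -0.018 to 0.137, and those of differently numbered arrays at -0.115 to 0.140. With 3 same-numbered pairs, these values do not settle whether arrays were paired. With the number as a block, 0 members and 0 genes passed and Foxo3 was at 0.084. Rows near the array median limit what can be read for Foxo1, Foxo3, Sesn3 and Klf2.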

Other observations

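Among the wider FoxO targets, the genes below lie outside the naming rule and were picked after their values were seen. Cdkn1b, which encodes the cyclin-dependent kinase inhibitor p27, was 9.95, 10.94 and 10.85 in KO, against 11.16, 11.35, 7.06, 10.94 and 11.03 in WT. Over all arrays its difference was 0.27, and it was -0.54 once WT array 3 was left out, so that 1 array turned its sign, and the exact permutation p was 0.982 and 0.0571. Tnfsf10, which encodes the death ligand TRAIL, was dim and did not pass the filter, with 1 KO array and 0 WT arrays above the median row. It was 5.13, 5.82 and 5.38 in KO, against 4.96, 4.98, 5.02, 4.72 and 4.77 in WT. All KO arrays lay above all WT arrays, as in 1.58% of tested genes, a share not computed for dim rows. Tnfsf10 exceeded all background rows on 0 arrays. The difference was 0.56, and 0.59 without WT array 3, with an adjusted p of 0.999 in limma without the filter. S1pr1, dim as well, also had no overlap but with KO lower, at 2.67 to 2.75 in KO and 2.79 to 3.03 in WT.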
